A study of Homo sapiens with 6 samples.

Results

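The genes described here are 35 genes of glycolysis and of the hypoxia response, out of 26334 gene symbols with values in the libraries. They were chosen by symbol for their known roles and not by a measured value, though with earlier results of these data known. Each gene's value is the sum over its isoforms. Among them, 20 encode enzymes, transporters and regulators of glycolysis, 12 are other targets of hypoxia-inducible factor (HIF), and 3 encode HIF subunits. The RNA came from PC-9 cells, an EGFR-mutant line established from a lung adenocarcinoma, grown in RPMI with fetal bovine serum. The sample titles and the paper's account of this sequencing name no drug. Cells carried a scrambled shRNA (shScr) or 1 of 2 shRNAs against the splicing factor RBM10 (shRBM10#1 or shRBM10#2), and each of the 3 conditions has 2 libraries. The sequencing methods of the paper name parental PC-9 cells as the other sample, while its results and the sample titles name shScr. The knockdown (KD) was studied in 1 cell line, and the libraries count as replicates on the ground of their labels alone, so p-values measure the spread between these libraries, which may be technical. The comparisons asked which of these genes had a different RNA level after RBM10 KD, and whether both shRNAs gave the same difference.

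Glycolysis turns glucose taken up through GLUT transporters into pyruvate, which lactate dehydrogenase reduces to lactate for export by monocarboxylate transporters. HIF is a pair of an oxygen-regulated alpha subunit (HIF1A or EPAS1) and the stable partner ARNT. With oxygen present, EGLN prolyl hydroxylases mark the alpha subunit for degradation through VHL, and in hypoxia HIF binds DNA and raises transcription of many glycolytic genes together with genes such as VEGFA and CA9. Tumor cells often run glycolysis with oxygen present, and lung cancer cell lines usually express these genes at a high level in normal culture.

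Library totals were 31953729 to 37557507 expected counts, the number of read fragments that RSEM assigned to isoforms. All 35 genes passed the filter on low counts and were among the 14217 genes tested. RBM10 measured 38.5 and 45.7 TPM with shScr, 28.4 and 25.8 with shRBM10#1, and 13.1 and 12.8 with shRBM10#2 (TPM is a level per transcript length, scaled to the same total in each library). The RBM10 log2 fold change (log2 FC) against shScr was -0.54 with shRBM10#1 (SE 0.067, FDR 0.000228) and -1.65 with shRBM10#2 (SE 0.070, FDR 5.10e-08), so the KD was deeper with shRBM10#2. The shScr replicate 2 library stood apart, with a mean fragment of 231 nt against 265 to 281 nt in the other 5 libraries. Calls among the 35 genes were also made without it. Epithelial markers were high (EPCAM 379 to 455 TPM), and the lung lineage markers NKX2-1, NAPSA, SFTPB and SFTPC were all below 1 TPM, with a summed level of 0.310 to 0.820 TPM. Among 8 markers of immune, endothelial and stromal cells, 5 were below 1 TPM in every library and CD68 was the highest at 76.8 to 116 TPM. The summed level of the 8 markers was 104 and 121 TPM with shScr, 86.3 and 84.3 with shRBM10#1, and 80.4 and 82.4 with shRBM10#2. Most of this sum was CD68. The other leukocyte markers, PTPRC (0.02 to 0.05 TPM) and CD3E (0 to 0.11 TPM), were below 1 TPM. The part of this sum in the results was not tested. In bulk RNA, fewer cells that express a gene and less RNA per cell cannot be told apart.

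The 35 genes spanned a wide range of levels per transcript length. GAPDH, the dehydrogenase of glyceraldehyde 3-phosphate, had the highest level among them at 13153 to 14422 TPM over the 6 libraries. Below it came ALDOA (aldolase) at 2937 to 3513 TPM, LDHA (lactate dehydrogenase A) at 2544 to 2807 TPM, ENO1 (enolase) at 2039 to 2737 TPM and TPI1 (triose phosphate isomerase) at 1802 to 2137 TPM. The ranges of LDHA and ENO1 overlapped, as did those of ENO1 and TPI1, and those of GAPDH, ALDOA and LDHA did not. The lowest were PFKFB4 (3.0 to 4.5 TPM) and ANKRD37 (2.3 to 4.0 TPM). Summed over the 20 glycolysis genes, the level was 25266 to 27878 TPM, and over the 12 other HIF targets it was 451 to 593 TPM.

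**Figure D1:**
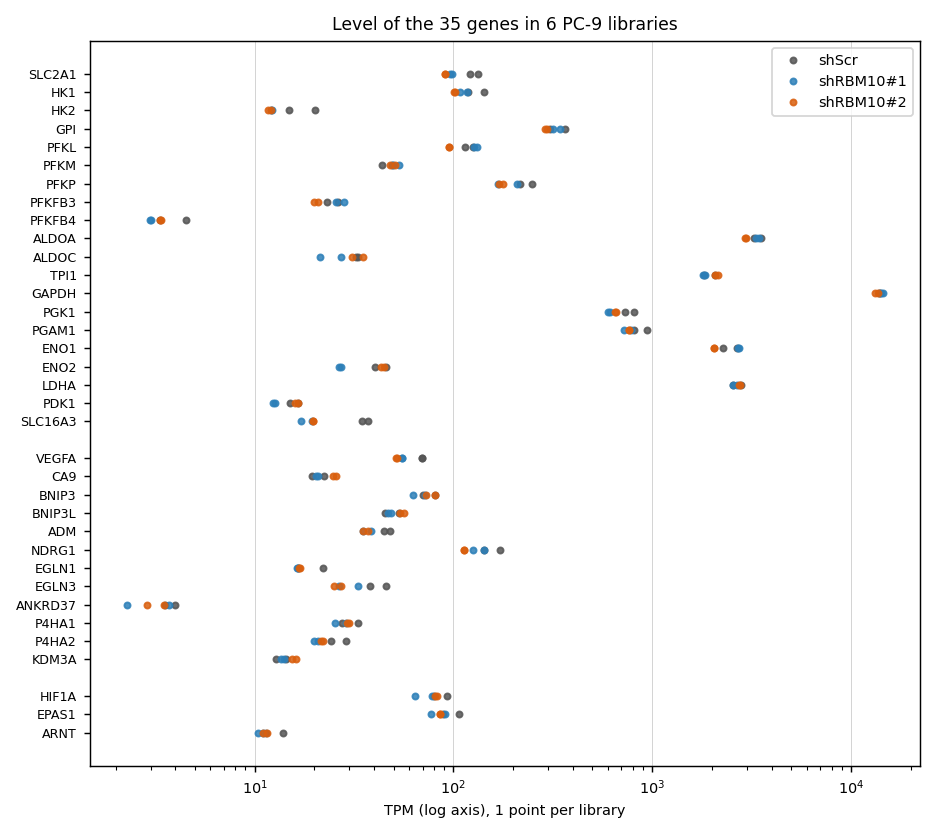
Level of the 35 genes in TPM on a log axis, 1 point per library, colored by condition, with the glycolysis genes, the other HIF targets and the HIF subunits in separate blocks. GAPDH lies between 13153 and 14422 TPM in all 6 libraries, and the SLC16A3 points of the 4 KD libraries lie to the left of the shScr points.

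With shRBM10#1, 9 of the 35 genes were lower than with shScr (25.7% of the genes, against 6.91% of the 14217 genes tested) and 2 were higher (5.71%, against 7.13%), at an FDR below 0.05 by edgeR's quasi-likelihood test with Benjamini-Hochberg adjustment over all genes tested. With shRBM10#2, 13 were lower (37.1%, against 13.9% of all genes) and 3 were higher (8.57%, against 12%). The median log2 FC of the 35 genes was -0.13 with shRBM10#1 and -0.15 with shRBM10#2, and over all genes tested it was 0.0079 and 0.0054. These comparisons share the shScr libraries. None of the 35 genes had an absolute log2 FC above 1 with an FDR below 0.05. In scaled counts (CPM, counts relative to the TMM-scaled library total, used here for values of the same gene between libraries), all 4 KD libraries were below both shScr libraries for 13 of the 35 genes (14.5% of all genes tested) and above them for 4 (14.9%).

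Of all genes tested, 6.91% were lower and 7.13% higher with shRBM10#1, and 13.9% were lower and 12% higher with shRBM10#2. Among the 20 glycolysis genes, 6 were lower and 2 were higher with shRBM10#1, and 8 were lower and 0 were higher with shRBM10#2. At an unadjusted p below 0.05, 2 glycolysis genes were higher with shRBM10#2, and DESeq2 called 1. Among the 12 other HIF targets, 3 were lower and 0 higher with shRBM10#1, and 5 were lower and 3 higher with shRBM10#2. With shRBM10#1, 0 of these targets were higher at an unadjusted p below 0.05 and 0 by DESeq2. Many calls were lost on leaving out 1 library. Some calls with shRBM10#1, such as those of PFKM and PGK1, were also lost without a shRBM10#2 library, which is not in the conditions compared. A left-out library also leaves fewer libraries to estimate the spread, and the cause of the losses was not tested. The number of all genes called changed with the library left out as well, with ranges given at the end. Without shScr replicate 2, 5 of the 35 genes were called with shRBM10#1 and 11 with shRBM10#2. Leaving out shScr replicate 1, shRBM10#2 replicate 1 or shRBM10#2 replicate 2 also left 5 with shRBM10#1, and for shRBM10#2 the count was 6 without its replicate 1 and 5 without its replicate 2. Calls that held without any 1 of the 6 libraries were those of SLC2A1, HK2, ENO2 and SLC16A3 with shRBM10#1, and of SLC2A1, HK2, SLC16A3, NDRG1 and EGLN3 with shRBM10#2.

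**Figure D2:**
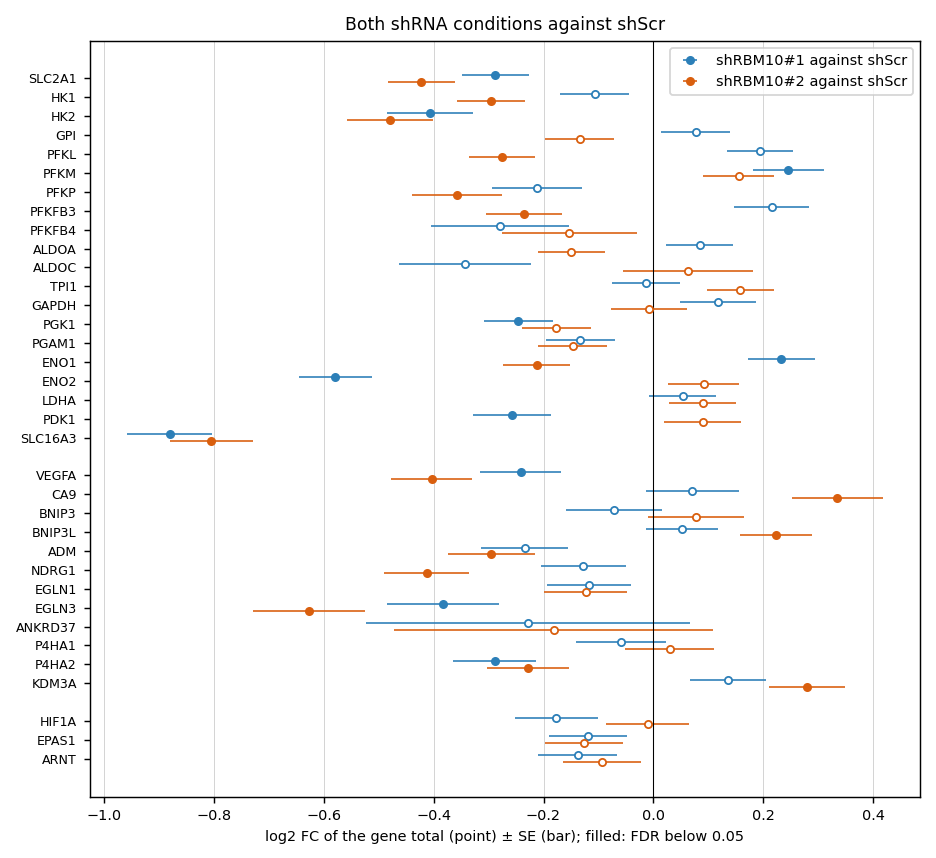
Log2 FC of the gene total (point) ± SE (bar) for each of the 35 genes with shRBM10#1 (blue) and shRBM10#2 (orange) against shScr, filled where the FDR was below 0.05. SLC16A3 lies farthest left with both shRNAs (-0.88 and -0.80), and ENO1 lies right of 0 with shRBM10#1 (0.23) and left of 0 with shRBM10#2 (-0.21).

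Both plasma membrane transporters in the set were lower with both shRNAs. SLC16A3 encodes the lactate exporter MCT4 and had the largest difference of the 35 genes in each comparison with shScr. It measured 42.8 and 40.6 CPM with shScr, 23.6 and 21.7 with shRBM10#1, and 23.9 and 23.9 with shRBM10#2. The groups did not overlap, and the KD libraries were at 54.3% of shScr with shRBM10#1 (log2 FC -0.88, SE 0.077, FDR 2.44e-05) and at 57.3% with shRBM10#2 (log2 FC -0.80, SE 0.076, FDR 7.48e-05). Without shScr replicate 2, the log2 FC was -0.92 (FDR 0.000679) and -0.84 (FDR 0.00156). SLC16A3 overlaps CSNK1D in the RefSeq annotation, a casein kinase gene with a mean expected count of 4478 against 1011 for SLC16A3, and the strand protocol is not given in the sources used here, so reads from the shared part cannot be told apart. The CSNK1D log2 FC was -0.18 with shRBM10#1 (FDR 0.0797) and -0.42 with shRBM10#2 (FDR 0.000895). Other expressed genes that overlap one of the 35 there are SENP1 (PFKM), PPP2R2D (BNIP3), SPSB2 (TPI1), UCN2 (PFKFB4), UFSP2 and LRP2BP (ANKRD37), P4HA2-AS1 (P4HA2) and HIF1A-AS2 (HIF1A), of which only UFSP2 had a higher mean expected count (749 against 52) than its partner.

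SLC2A1 encodes the glucose importer GLUT1. It measured 287.9 and 277.6 CPM with shScr, 231.5 and 231.9 with shRBM10#1, and 209.8 and 212.2 with shRBM10#2. All 4 KD libraries were below both shScr libraries, with a log2 FC of -0.29 (SE 0.060, FDR 0.00708) and -0.42 (SE 0.060, FDR 0.000643). Without shScr replicate 2, these were -0.31 (FDR 0.0234) and -0.45 (FDR 0.00445).

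The hexokinases trap glucose as glucose 6-phosphate. HK2, the inducible isozyme common in tumors, measured 71.1 and 83.1 CPM with shScr, 57.6 and 58.7 with shRBM10#1, and 56.2 and 54.4 with shRBM10#2. Its groups did not overlap, although the shScr libraries differed most for this gene among the 35 (0.22 on the log2 scale). The log2 FC was -0.41 with shRBM10#1 (SE 0.079, FDR 0.00443) and -0.48 with shRBM10#2 (SE 0.079, FDR 0.00131). Without shScr replicate 2, it was -0.29 (FDR 0.0499) and -0.36 (FDR 0.0134). HK1, the broadly expressed isozyme, measured 276.3 and 290.8 CPM with shScr, 269.1 and 257.4 with shRBM10#1, and 229.5 and 232.6 with shRBM10#2. It was lower with shRBM10#2 (log2 FC -0.30, SE 0.063, FDR 0.00525), a call lost without shRBM10#2 replicate 1 or replicate 2 (FDR 0.0782 to 0.0914), and had a log2 FC of -0.11 with shRBM10#1 (FDR 0.289).

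The letters that HIF binds are held in a hypoxia response element whose core is ACGTG or GCGTG. These letters were searched on both strands of RefSeq windows (GRCh38.p14) that reach from 250 bases before to 50 bases after a transcript start, and 32 of the 35 genes had a window. VEGFA, BNIP3L and NDRG1 were not searched. For 31 genes, the window nearest the GENCODE 29 start of the isoform with the highest TPM was taken, at a distance of 0 to 3417 bases. A match lay in 24 of these 31 windows (77.4%), against 48.4% of all 35116 windows and 59.9% of the 15215 windows of tested genes. The share of the 31 genes counts 1 chosen window per gene. Both background shares count every window, alternative starts included, so the units are unlike and no enrichment can be read from these shares. A CACGTG counts as 2 matches, 1 per strand, and is also the letters of an E-box, a site of other factors such as MYC. The stretches before the start are shown for SLC16A3 and HK2, which were lower with both shRNAs, and for PGK1 and LDHA, which are established HIF targets, with the matched letters in capitals and trimmed so that no base after a RefSeq or GENCODE start is shown. They lie on the plus strand at chr17:82228792-82229031 (SLC16A3), chr2:74833877-74833980 (HK2), chrX:78103998-78104173 (PGK1) and chr11:18394313-18394387 (LDHA).
SLC16A3: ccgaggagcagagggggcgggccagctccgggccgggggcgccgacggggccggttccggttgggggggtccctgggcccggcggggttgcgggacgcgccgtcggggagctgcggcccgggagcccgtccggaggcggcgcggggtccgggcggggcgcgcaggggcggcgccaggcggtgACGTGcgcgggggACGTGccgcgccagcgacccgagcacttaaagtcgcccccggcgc
HK2: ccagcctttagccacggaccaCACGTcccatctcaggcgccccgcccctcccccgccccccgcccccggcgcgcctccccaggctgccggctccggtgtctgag
PGK1: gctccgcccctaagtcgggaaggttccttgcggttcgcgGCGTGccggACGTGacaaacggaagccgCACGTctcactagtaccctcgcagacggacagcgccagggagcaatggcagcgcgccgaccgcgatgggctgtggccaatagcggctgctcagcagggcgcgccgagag
LDHA: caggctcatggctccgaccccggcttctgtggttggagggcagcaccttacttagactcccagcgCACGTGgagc
In the full windows there were 2 matches for SLC16A3, 3 for HK2, 4 for PGK1 and 6 for LDHA. The windows of EGLN3 and P4HA2, also lower with both shRNAs, held 0 matches, that of SLC2A1 held 1, and VEGFA was not searched. A match is a description of these letters alone, and LDHA, with 6 matches, had no call.

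**Figure D3:**
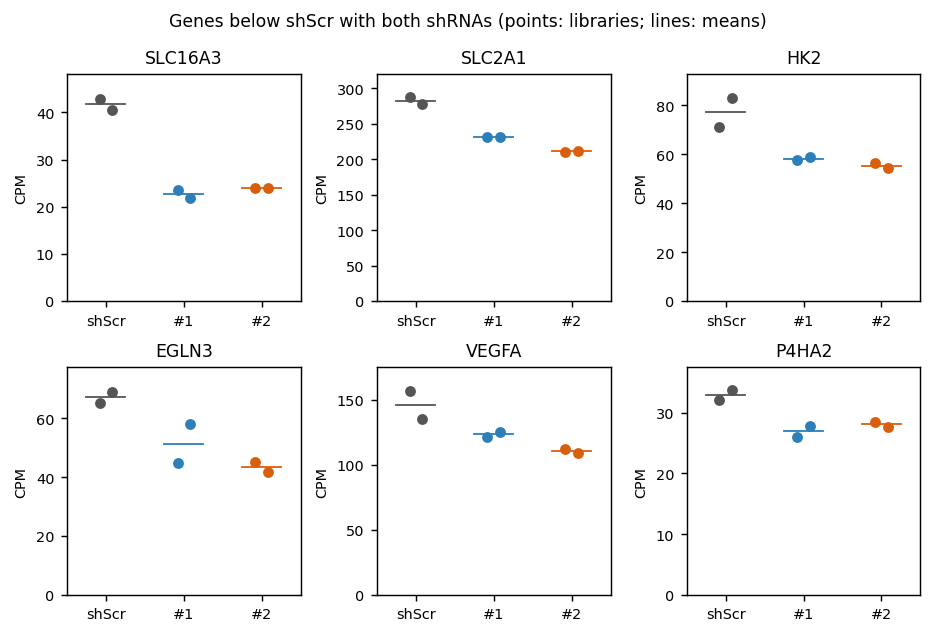
CPM of the 6 genes lower with both shRNAs in each library (points) with the mean of each condition (line) on axes that start at 0. For SLC16A3 the 4 KD libraries lie between 21.7 and 23.9 CPM and the shScr libraries at 40.6 and 42.8.

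Phosphofructokinase catalyzes the committed step, and PFKFB enzymes set its activator fructose 2,6-bisphosphate. The 3 phosphofructokinase genes had unlike values. PFKL, the liver-type subunit, measured 214.1 and 206.0 CPM with shScr, 240.4 and 240.0 with shRBM10#1, and 172.7 and 174.2 with shRBM10#2. It was lower with shRBM10#2 (log2 FC -0.28, SE 0.061, FDR 0.00621), a call lost without shRBM10#2 replicate 1 or replicate 2 (FDR 0.0938 to 0.102), and its log2 FC with shRBM10#1 was 0.19 (FDR 0.0502). PFKP, the platelet-type subunit, measured 359.9 and 365.2 CPM with shScr, 342.3 and 283.9 with shRBM10#1, and 275.7 and 290.3 with shRBM10#2. The log2 FC of PFKP was -0.21 with shRBM10#1 (FDR 0.107) and -0.36 with shRBM10#2 (SE 0.082, FDR 0.00764), the latter lost without shRBM10#2 replicate 1 or replicate 2 (FDR 0.0584 to 0.105). PFKM, the muscle-type subunit, lay the other way in both conditions, at 90.6 and 88.6 CPM with shScr, 108.2 and 104.3 with shRBM10#1, and 96.7 and 102.8 with shRBM10#2. It was higher with shRBM10#1 (log2 FC 0.25, SE 0.064, FDR 0.0235), a call lost without either shScr library or either shRBM10#2 library (FDR 0.0614 to 0.109), and its log2 FC with shRBM10#2 was 0.16 (FDR 0.0944).

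PFKFB3, an isozyme with a high ratio of kinase to phosphatase activity, measured 68.1 and 67.6 CPM with shScr, 81.6 and 76.1 with shRBM10#1, and 59.1 and 56.1 with shRBM10#2. The shScr libraries thus lay between the shRNA conditions. It was lower with shRBM10#2 (log2 FC -0.24, SE 0.068, FDR 0.0240), a call lost without either shScr or either shRBM10#2 library (FDR 0.0687 to 0.245), and its log2 FC with shRBM10#1 was 0.22 (FDR 0.0521). PFKFB4 had a low level (6.71 to 8.87 CPM) and no call. GPI, the isomerase between hexokinase and phosphofructokinase, measured 844.3 and 876.1 CPM with shScr, 930.6 and 884.0 with shRBM10#1, and 776.0 and 791.3 with shRBM10#2, with no call against shScr.

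GAPDH, LDHA, ALDOA, ALDOC, TPI1 and PGAM1 had no call against shScr. GAPDH measured 11020 and 9770 CPM with shScr, 11190 and 11360 with shRBM10#1, and 10120 and 10560 with shRBM10#2. Its log2 FC was 0.12 with shRBM10#1 (SE 0.070, FDR 0.295) and -0.01 with shRBM10#2 (SE 0.070, FDR 0.949), with 95% intervals from -0.03 to 0.27 and from -0.16 to 0.14. LDHA measured 3458 and 3357 CPM with shScr, 3562 and 3509 with shRBM10#1, and 3589 and 3663 with shRBM10#2. All 4 KD libraries of LDHA were above both shScr libraries by a small margin, at a log2 FC of 0.05 (SE 0.061, FDR 0.609) and 0.09 (SE 0.061, FDR 0.306), and the 95% intervals ran from -0.08 to 0.18 and from -0.04 to 0.22. ALDOA measured 3016 and 2906 CPM with shScr, 3137 and 3143 with shRBM10#1, and 2649 and 2691 with shRBM10#2, with an FDR of 0.396 and 0.0898 against shScr. ALDOC, the brain-type aldolase, measured 31.9 and 27.9 CPM with shScr, 20.3 and 26.7 with shRBM10#1, and 29.03 and 33.4 with shRBM10#2, with an FDR of 0.0771 and 0.735. TPI1 ranged from 1376 to 1588 CPM and PGAM1, the phosphoglycerate mutase, from 742.2 to 851.6 CPM (TPI1 had an FDR of 0.0761 with shRBM10#2 and 0.0397 by DESeq2).

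PGK1, which makes the first ATP of the pathway, measured 1096 and 1075 CPM with shScr, 885.9 and 944.6 with shRBM10#1, and 948.7 and 972.1 with shRBM10#2. All 4 KD libraries were below both shScr libraries. The log2 FC was -0.25 with shRBM10#1 (SE 0.063, FDR 0.0217) and -0.18 with shRBM10#2 (FDR 0.0567, or 0.0181 by DESeq2), and the shRBM10#1 call was kept only without shRBM10#1 replicate 2 (FDR 0.0522 to 0.0738 without each of the other libraries). PDK1 encodes a kinase that shuts pyruvate out of the citric acid cycle by inhibiting pyruvate dehydrogenase. It measured 40.7 and 40.9 CPM with shScr, 33.4 and 34.9 with shRBM10#1, and 42.3 and 44.6 with shRBM10#2. PDK1 was lower with shRBM10#1 (log2 FC -0.26, SE 0.071, FDR 0.0302), a call lost on leaving out any 1 library (FDR 0.0521 to 0.105), and had a log2 FC of 0.09 with shRBM10#2 (FDR 0.380).

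The enolases convert 2-phosphoglycerate to phosphoenolpyruvate, and ENO1 and ENO2 differed between the shRNAs in opposite directions. ENO1, the broadly expressed enolase, measured 3053 and 3155 CPM with shScr, 3609 and 3685 with shRBM10#1, and 2664 and 2693 with shRBM10#2. It was higher with shRBM10#1 (log2 FC 0.23, SE 0.061, FDR 0.0234) and lower with shRBM10#2 (log2 FC -0.21, SE 0.061, FDR 0.0227), with no overlap between the 3 conditions. The first call was kept only without shRBM10#1 replicate 1 (FDR 0.0564 to 0.100 without each of the others), and the second was lost without shScr replicate 2 or either shRBM10#2 library (FDR 0.0836 to 0.222). ENO2, the neuronal enolase, measured 60.8 and 60.6 CPM with shScr, 40.5 and 40.7 with shRBM10#1, and 63.4 and 65.9 with shRBM10#2. The shRBM10#1 libraries alone were low (log2 FC -0.58, SE 0.067, FDR 0.000146), and this call held without any 1 library, while the log2 FC with shRBM10#2 was 0.09 (SE 0.065, FDR 0.331).

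Compared with each other, shRBM10#2 and shRBM10#1 differed for 11 of the 35 genes, with 4 higher with shRBM10#2 (11% of all genes tested were) and 7 lower (14.5% were). Higher with shRBM10#2 were ENO2 (log2 FC 0.67, SE 0.066, FDR 9.31e-05), ALDOC (0.41, SE 0.12, FDR 0.0250), PDK1 (0.35, SE 0.070, FDR 0.00413) and CA9 (0.26, SE 0.082, FDR 0.0326). Lower were PFKL (-0.47, SE 0.060, FDR 0.000352), PFKFB3 (-0.45, SE 0.068, FDR 0.000809), ENO1 (-0.45, SE 0.061, FDR 0.000498), NDRG1 (-0.28, SE 0.077, FDR 0.0177), ALDOA (-0.23, SE 0.061, FDR 0.0144), GPI (-0.21, SE 0.063, FDR 0.0267) and HK1 (-0.19, SE 0.063, FDR 0.0433). The differences of PFKL, PFKFB3, ENO1 and ENO2 held without any 1 library, those of ALDOC, PDK1, CA9, NDRG1, ALDOA, GPI and HK1 did not, and the count fell to 6 without shRBM10#2 replicate 1 and to 4 without its replicate 2. With the replicate number as a block, 7 were called. PFKM, PGK1, PFKP, ADM, BNIP3L and KDM3A, each called against shScr with 1 of the shRNAs, were not shown to differ between them (FDR 0.0727 to 0.617).

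**Figure D4:**
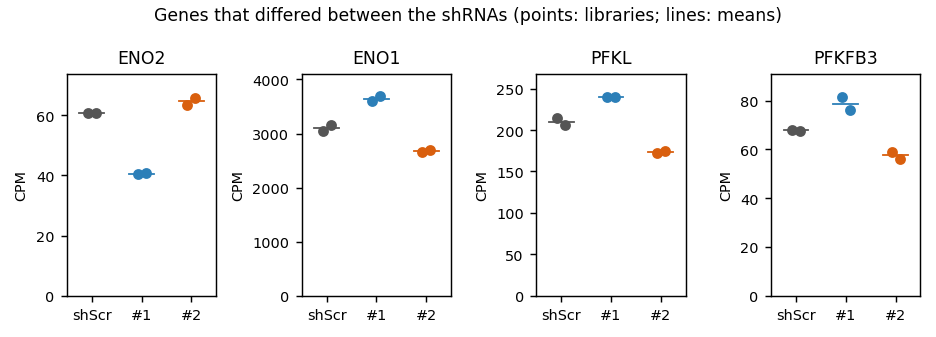
CPM of ENO2, ENO1, PFKL and PFKFB3 in each library (points) with the mean of each condition (line) on axes that start at 0, where #1 and #2 are the RBM10 shRNAs. ENO2 is low with shRBM10#1 (40.5 and 40.7 CPM) and the other 3 genes are lowest with shRBM10#2.

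Of the HIF targets outside glycolysis, VEGFA, EGLN3 and P4HA2 were lower with both shRNAs. VEGFA, the main angiogenic growth factor, measured 156.8 and 135.7 CPM with shScr, 121.8 and 125.5 with shRBM10#1, and 112.0 and 109.1 with shRBM10#2. Its log2 FC was -0.24 (SE 0.073, FDR 0.0452) and -0.40 (SE 0.074, FDR 0.00230), where the first was kept only without shScr replicate 2 (-0.34, FDR 0.0183, against 0.0779 to 0.256 without each other library) and the second was lost without shRBM10#2 replicate 2 (FDR 0.0501). EGLN3, the prolyl hydroxylase that HIF itself induces, measured 65.2 and 68.9 CPM with shScr, 44.7 and 57.9 with shRBM10#1, and 45.1 and 41.7 with shRBM10#2. EGLN3 was lower with shRBM10#1 (log2 FC -0.38, SE 0.10, FDR 0.0248), a call lost without either shScr library or shRBM10#1 replicate 1 (FDR 0.0694 to 0.155). It was lower with shRBM10#2 (log2 FC -0.63, SE 0.10, FDR 0.00121), where it stayed below an FDR of 0.05 without any 1 library. P4HA2, a collagen prolyl hydroxylase, measured 32.1 and 33.7 CPM with shScr, 26.1 and 27.8 with shRBM10#1, and 28.5 and 27.7 with shRBM10#2. The P4HA2 log2 FC was -0.29 (SE 0.076, FDR 0.0236) and -0.23 (SE 0.075, FDR 0.0404), the first kept only without shScr replicate 1 or shRBM10#1 replicate 2 (FDR 0.0566 to 0.120 otherwise) and the second only without a shRBM10#1 library (FDR 0.0675 to 0.264 otherwise).

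NDRG1, a stress-induced differentiation gene, and ADM, the vasodilator adrenomedullin, were lower with shRBM10#2. NDRG1 measured 281.5 and 296.2 CPM with shScr, 242.5 and 286.1 with shRBM10#1, and 216.6 and 217.5 with shRBM10#2, and the shRBM10#1 libraries straddled the lower shScr value. The NDRG1 log2 FC was -0.13 (FDR 0.306) and -0.41 (SE 0.077, FDR 0.00271), and the latter held without any 1 library. ADM measured 41.1 and 39.3 CPM with shScr, 31.97 and 36.3 with shRBM10#1, and 33.6 and 31.95 with shRBM10#2. All 4 KD libraries of ADM were below shScr, with a log2 FC of -0.23 (FDR 0.0695) and -0.30 (SE 0.080, FDR 0.0172), the latter lost without shScr replicate 1 or either shRBM10#2 library (FDR 0.0882 to 0.175).

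Higher targets were called with shRBM10#2. CA9, a carbonic anhydrase at the cell surface and a widely used hypoxia marker, measured 17.4 and 17.9 CPM with shScr, 18.5 and 18.5 with shRBM10#1, and 21.7 and 22.7 with shRBM10#2. Its log2 FC was 0.07 with shRBM10#1 (SE 0.084, FDR 0.624) and 0.33 with shRBM10#2 (SE 0.082, FDR 0.0111), the latter lost without shScr replicate 1 or either shRBM10#2 library (FDR 0.0572 to 0.134). KDM3A, a histone demethylase, measured 40.1 and 38.9 CPM with shScr, 43.8 and 43.0 with shRBM10#1, and 49.1 and 46.8 with shRBM10#2. For KDM3A the log2 FC was 0.14 (FDR 0.223) and 0.28 (SE 0.069, FDR 0.0111), lost without shScr replicate 2 or either shRBM10#2 library (FDR 0.0547 to 0.140). BNIP3L, a mitophagy receptor, measured 102.9 and 105.1 CPM with shScr, 104.0 and 111.6 with shRBM10#1, and 118.1 and 124.7 with shRBM10#2. BNIP3L was higher with shRBM10#2 (log2 FC 0.22, SE 0.065, FDR 0.0254), a call lost without either shScr or either shRBM10#2 library (FDR 0.0659 to 0.255). BNIP3 (its paralog), EGLN1 (the main HIF prolyl hydroxylase), ANKRD37 and P4HA1 had no call in any comparison, at 58.6 to 75.2, 76.9 to 91.8, 1.06 to 1.82 and 45.0 to 52.8 CPM.

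The HIF subunits had no call in any comparison by edgeR's quasi-likelihood test or DESeq2. At an unadjusted p below 0.05 there was 1 against shScr, HIF1A with shRBM10#1. HIF1A measured 211.2 and 215.2 CPM with shScr, 203.8 and 173.5 with shRBM10#1, and 209.7 and 213.7 with shRBM10#2. Its log2 FC was -0.18 (SE 0.075, FDR 0.143) and -0.01 (SE 0.075, FDR 0.937), and the value with shRBM10#1 was -0.07 (FDR 0.599) without replicate 2 of that condition and -0.30 (FDR 0.00698) without its replicate 1. EPAS1, which encodes HIF-2 alpha, measured 304.5 and 320.0 CPM with shScr, 305.4 and 269.7 with shRBM10#1, and 284.5 and 287.7 with shRBM10#2, with a log2 FC of -0.12 (FDR 0.297, or 0.0438 without shRBM10#1 replicate 1) and -0.13 (FDR 0.213). ARNT measured 37.0 and 39.0 CPM with shScr, 34.9 and 34.2 with shRBM10#1, and 34.9 and 36.3 with shRBM10#2, with a log2 FC of -0.14 (FDR 0.231) and -0.09 (FDR 0.368). HIF is regulated mainly through the stability of its alpha protein, which RNA levels do not measure.

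With the 4 KD libraries as 1 group against shScr, 2 of the 35 genes were lower (1.08% of all genes tested were) and 0 were higher (0.542% were). These were SLC16A3 (55.8% of shScr, log2 FC -0.84, SE 0.081, FDR 0.00547) and HK2 (73.6% of shScr, log2 FC -0.44, SE 0.087, FDR 0.0458). At an unadjusted p below 0.05, 2 of the 35 genes were higher, and 0 by DESeq2. The SLC16A3 call was lost without either shScr library (FDR 0.150 to 0.182), and that of HK2 was kept only without shRBM10#1 replicate 1. RBM10 itself had a log2 FC of -0.99 in this comparison with an FDR of 0.146, and its level differed between the shRNA conditions (log2 FC -1.11, FDR 3.65e-06).

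Of the 35 genes, 21 have more than 1 listed isoform and were tested for isoform usage, the share of each isoform in its gene, by edgeR's diffSpliceDGE. With shRBM10#1, 0 of the 21 genes were called (0.172% of the 6405 genes tested were), 1 had an unadjusted p below 0.05, and limma called 0. With shRBM10#2, GAPDH and ALDOA were called (2.75% of all genes tested were). The minor GAPDH isoform NM_001289746 measured 654.9 and 719.8 TPM with shScr, 718.3 and 648.1 with shRBM10#1, and 257.4 and 251.4 with shRBM10#2, while the main isoform NM_002046 ranged from 12869 to 13650 TPM. Its share of GAPDH was 4.69% and 5.21%, 4.98% and 4.58%, and 1.96% and 1.85%, so the shRBM10#2 libraries were low, and usage was not tested between the shRNAs. Relative to its gene the isoform had a log2 change of -0.95 with shRBM10#2 (FDR of the gene 1.94e-07), and the call held without any 1 library (highest FDR 0.000318). A further minor GAPDH isoform, NM_001289745, also had a lower share with shRBM10#2 (0.169% and 0.209%, against 0.296% and 0.36% with shScr). Its log2 change relative to the gene was -0.54. Isoforms under 5% of their gene are left out in 1 alternative, and GAPDH then could not be tested. In GENCODE 29 (GRCh38, chromosome 12, plus strand), the first exon of NM_001289746 spans 6534754 to 6534861, and its last 52 bases are exon 2 of NM_002046 (6534810 to 6534861), so the 56 bases from 6534754 to 6534809 set it apart. The coding sequence of both starts at 6534833 and is 1005 nt long, so the annotated protein is the same.

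The ALDOA isoform NM_184043 measured 268.2 and 276.7 TPM with shScr, 266.5 and 262.5 with shRBM10#1, and 329.8 and 329.2 with shRBM10#2. It made up 8.24% and 7.88%, 7.74% and 7.86%, and 11.2% and 11.1% of ALDOA, with a log2 change relative to its gene of 0.33 with shRBM10#2 (FDR of the gene 0.00660). This call was lost without shScr replicate 2 (FDR 0.0553) and without shRBM10#2 replicate 1 (0.194) or replicate 2 (0.171). NM_184043 begins at an exon from 30064274 to 30064505 on chromosome 16, and the main isoform NM_184041 at 30065673 to 30065927, and both have a coding sequence of 1092 nt. NM_000034 has the same first and second exon, coding range and number of exons (9) in that annotation, so none of these sets NM_184043 apart. The share of NM_000034 in ALDOA was 2.34% and 2.51% with shScr and 2.23% and 2.34% with shRBM10#2 (log2 change relative to its gene -0.05). Which reads separate NM_000034 and NM_184043 in the deposited values was not examined. RSEM splits reads shared by isoforms by an estimate, so values of isoforms that differ only at their start rest on the reads from that part.

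**Figure D5:**
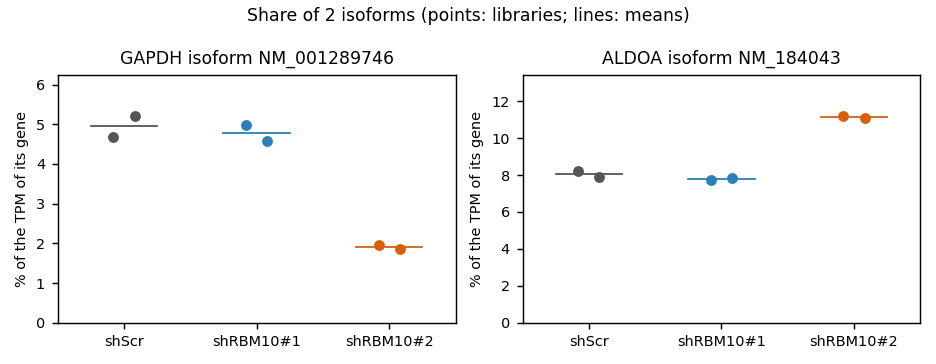
Share of the GAPDH isoform NM_001289746 and of the ALDOA isoform NM_184043 in the TPM of their gene, in percent, per library (points) with the mean of each condition (line). The shRBM10#2 libraries are low for the GAPDH isoform (1.96% and 1.85%) and high for the ALDOA isoform (11.2% and 11.1%).

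Other genes of these pathways were counted in the same fit, where 6.91% of all genes tested were lower and 7.13% higher with shRBM10#1, and 13.9% lower and 12% higher with shRBM10#2. Calls of single genes in these other lists were not checked with a library left out. Of 13 other glycolysis genes tested, 4 were lower with shRBM10#1, and 5 were lower and 1 higher with shRBM10#2. HKDC1, a further hexokinase, was lower with both (log2 FC -0.82 and -0.79). PFKFB2, a sugar phosphate kinase, was lower with both as well (-0.58 and -0.44). SLC16A1, the transporter MCT1, was lower with shRBM10#1 (-0.56) and had a log2 FC of -0.01 with shRBM10#2 (FDR 0.965). The phosphoglucomutase PGM1 (-0.29) and the pyruvate kinase PKM (-0.22) were lower with shRBM10#2, at -0.08 and -0.05 with shRBM10#1 (FDR 0.445 and 0.665). Of 21 genes of pyruvate entry and the citric acid cycle, 2 were higher and 1 lower with shRBM10#1, and 5 were higher and 1 lower with shRBM10#2. PDK4, a pyruvate dehydrogenase kinase like PDK1, was higher with both (0.91 and 0.64), as was the complex component PDHX (0.23 and 0.25, FDR 0.0448 and 0.0195). The phosphatase PDP1 was lower with shRBM10#1 (-0.35, FDR 0.0471) and at -0.26 with shRBM10#2 (FDR 0.0929). SUCLG1 (0.40) and PDK3 (0.34) were higher and OGDH (-0.31) was lower with shRBM10#2, at 0.10, 0.20 and -0.15 with shRBM10#1 (FDR 0.138 to 0.345). Of 7 pentose phosphate genes, PGD, a dehydrogenase of that pathway, was higher with both (0.20 and 0.20, FDR 0.0410 and 0.0296).

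Of 24 other HIF targets, 4 were lower and 2 higher with shRBM10#1, and 8 were lower and 3 higher with shRBM10#2. DDIT4, an inhibitor of mTORC1, was lower with both (log2 FC -0.95 and -0.76), as was STC2, a secreted glycoprotein (-1.05 and -0.77). HILPDA, a lipid droplet protein, was higher with both (0.82 and 0.45). BHLHE40, a transcriptional repressor, was lower with shRBM10#2 (-0.39) and at -0.11 with shRBM10#1 (FDR 0.328). Of 14 HIF pathway regulators, 1 was lower and 1 higher with shRBM10#1, and 6 were lower and 1 higher with shRBM10#2. ARNT2, a paralog of ARNT, was lower with both (-0.53 and -0.27). RBX1 of the VHL ubiquitin ligase was higher with shRBM10#1 (0.27, FDR 0.0430) and at 0.12 with shRBM10#2 (FDR 0.321). CITED2 (-0.43) and CREBBP (-0.33) were lower and CUL2 (0.32) was higher with shRBM10#2, at 0.07, -0.09 and 0.08 with shRBM10#1 (FDR 0.454 to 0.618). In the other lists the median log2 FC ranged from -0.08 to 0.13 with shRBM10#1 and from -0.19 to 0.08 with shRBM10#2.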

How the data were processed

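The deposited values were made by the authors with RSEM, per RefSeq isoform and library, in 2 units, expected counts (estimated fragment counts that need not be whole) and TPM. The submitters' processing notes name STAR 2.4, RSEM 1.2.29, edgeR and hg19, and the strand protocol is not given in the sources used here. The deposited effective lengths gave the length offset and the mean fragment length.

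Expected counts were summed per gene symbol, rounded and tested in edgeR 4.0.16 (R 4.3.3) with TMM scaling, the filterByExpr filter by condition and the quasi-likelihood test, 1 coefficient per condition (2 groups for the pooled KD comparison), and Benjamini-Hochberg adjustment over all 14217 genes tested. An FDR below 0.05 was called, and all tests were two-sided. SE is the absolute log2 FC divided by the root of the F statistic. Isoform usage was tested with diffSpliceDGE (Simes p-value). DESeq2 1.42.0 and limma 3.58.1 served as alternatives. CPM are scaled by TMM. The procedures were run on simulated counts with the same spread for all genes and libraries, which checks the code and not how the tests behave on these libraries.

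Per-library values are given for every gene called in any comparison and for 10 key genes, and from the other lists the 3 called genes with the smallest p per comparison with shScr. The 35 genes and the lists were chosen with earlier results of these data known. Genes of the other lists that did not pass the filter were not tested, and some genes of those lists are not reported here. No shared effect of the replicate number was seen, as the correlations of deviations between same-numbered libraries were -0.09, -0.05 and -0.04. The labels do not say whether same-numbered libraries were prepared together. Replicates differed by more than counting noise (chi-square per degree of freedom 3.22 to 12.2).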

Additional observations from a re-analysis of the deposited data

Results flagged for a closer look

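For 11 of the 35 genes, the difference from shScr was not the same for the 2 RBM10 shRNAs, by edgeR's quasi-likelihood test of shRBM10#2 against shRBM10#1 with Benjamini-Hochberg adjustment over all genes tested. Of all 14217 genes tested, 11% were higher and 14.5% lower in that comparison, beside 4 and 7 of the 35, and only the calls of PFKL, PFKFB3, ENO1 and ENO2 held without any 1 library. The log2 differences (shRBM10#2 minus shRBM10#1) were 0.67 for ENO2, 0.41 for ALDOC, 0.35 for PDK1 and 0.26 for CA9. They were -0.47 for PFKL, -0.45 for PFKFB3, -0.45 for ENO1, -0.28 for NDRG1, -0.23 for ALDOA, -0.21 for GPI and -0.19 for HK1. ENO1 was called in opposite directions against shScr, and RBM10 was lower with shRBM10#2 than with shRBM10#1 by a log2 FC of -1.11. Depth of KD and identity of the shRNA cannot be told apart in this design.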

How the results depend on the processing

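All called log2 FC of the 35 genes kept their direction under every alternative. Outside the left-out libraries, 256 of these comparisons of a call with an alternative stayed called and 24 were lost, and on leaving out a library 152 stayed and 88 were lost, the cause of which was not tested. Uncalled values near 0 changed sign in some alternatives.

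Called genes among the 35 numbered 11, 16, 11 and 2 (shRBM10#1, shRBM10#2, shRBM10#2 against shRBM10#1, pooled KD). With an absolute log2 FC above 1 required, there were 0, 0, 0 and 0 of them, and 267, 185, 169 and 56 of all genes in place of 1996, 3685, 3628 and 230. With only the 4 libraries compared, shRBM10#1 had 5. In the pooled comparison, DESeq2 called 5 of the 35 and 705 genes, 1 coefficient per condition called 14 and 2610 (RBM10 log2 FC then -1.10, FDR 3.14e-07), and the effective length offset called 1. For isoform usage, all genes called numbered 11 with shRBM10#1 and 176 with shRBM10#2. These became 42 and 571 with limma, 7 with shRBM10#1 at 10 counts or more in every library, and 31 with shRBM10#1 for isoforms of 5% or more, where 1 of the 35 was called with shRBM10#2.

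With the replicate block, 7 of the 35 were called between the shRNAs and 1 in the pooled comparison, 52 of all genes were called in the pooled comparison, and isoform usage was called for 4 and 83 genes. It changed no other count by over 1.5 times.

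With a library left out, the 35 genes gave 5 to 12 calls for shRBM10#1, 5 to 18 for shRBM10#2, 4 to 12 between the shRNAs and 0 to 4 pooled. All genes gave 959 to 2649, 965 to 4552, 923 to 3714 and 0 to 419, where the 0 came without either shScr library. Isoform usage gave 1 to 3 of the 35 with shRBM10#2, and 6 to 42 and 37 to 175 of all genes. A lone library was assumed to vary like the other conditions. With 2 libraries per condition, differences of the size of the replicate spread (median absolute log2 difference 0.0381 to 0.0679 among the 35) limit what can be called.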
